A study of Rattus norvegicus with 9 samples.

Results

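The CC chemokines examined here are 10 genes, Ccl2, Ccl3, Ccl4, Ccl5, Ccl6, Ccl7, Ccl9, Ccl20, Ccl22 and Ccl24. They were chosen by gene symbol, and were read from the 11 probe sets that carry one of these symbols alone, of 31099 probe sets and 14218 genes on the array. All 10 were present, Ccl22 with 2 probe sets and each of the others with 1. The cells were CD68+ cells of male Wistar rats, measured on 3 arrays per group. Blood CD68+ cells were selected magnetically from blood mononuclear cells and not cultured. In vitro activated CD68+ cells, called cultured cells here, were selected from blood in the same way and kept for 3 days on PTFE coated with fibrinogen (FG), the clotting protein that adsorbs to implants. FBR CD68+ cells came from the foreign body reaction (FBR), the tissue that forms on an implant, here a photo-oxidized bovine pericardium patch left for 3 days in the peritoneal cavity in a steel cage. Collagenase and plasmin released the FBR cells from that tissue, and the other cells did not pass this step, so group and route of isolation cannot be told apart. The labels call the replicates biological, and the number of rats behind an array is not given in the sources used here, so p-values measure the spread between arrays. Blood replicate 3 stood apart from the other blood arrays in Ccl2, Ccl7 and Ccl24, and results that rest on it are also given without it.

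Chemokines are small secreted proteins that guide migrating leukocytes through G protein-coupled receptors. Those of the CC family carry adjacent cysteines near their amino terminus, and many are made by activated macrophages. Ccl2 and Ccl7 attract monocytes through Ccr2. Ccl3, Ccl4 and Ccl5 are inflammatory chemokines that attract monocytes and T cells, and in the mouse Ccl6 and Ccl9 are ligands of Ccr1. Ccl20 is the ligand of Ccr6, Ccl22 of Ccr4, and Ccl24, or eotaxin-2, of the eosinophil receptor Ccr3. In the RefSeq annotation of the rat genome (assembly GRCr8) Ccl2 and Ccl7 are neighbours on chromosome 10, and Ccl5, Ccl9, Ccl6, Ccl3 and Ccl4 follow each other on the same chromosome. Ccl24, Ccl20 and Ccl22 lie on chromosomes 12, 9 and 19.

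FBR CD68+ cells had higher signals than blood cells in 9 of the 10 CC chemokines and a lower signal in 1, Ccl5. All 10 were thus called, against 11.0% of all probe sets called higher, 20.2% called lower and 31.2% called either way (limma, adjusted p under 0.05). The median log2 difference was 4.37 over the 10 genes and -0.17 over all probe sets. Between cultured and blood cells 4 of the 10 were higher in culture and 2 lower, where 11.6% and 13.5% of all probe sets were called, 25.1% in all, with medians of 0.53 and 0.05. Relative to the cultured cells, 6 were higher in FBR cells and 1 was lower, against 7.92% and 14.8% of all probe sets, or 22.8% either way. Here the medians were 3.43 and -0.24. Counted by arrays that do not overlap, FBR cells were above blood cells in 9 genes and below in 1, where 17.6% and 30.5% of probe sets were so placed. Cultured cells were above blood cells in 3 and below in 2 (19.4% and 20.0% of probe sets), and FBR cells were above cultured cells in 7 and below in 2 (14.4% and 27.7%). The 3 comparisons share arrays and are not independent of each other. Values are MAS5 signals, a linear intensity scaled per array, and differences are on the log2(signal + 16) scale, which understates changes of low signals. In bulk cells a higher signal cannot be assigned to more cells of a type or to more RNA per cell.

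**Figure D1:**
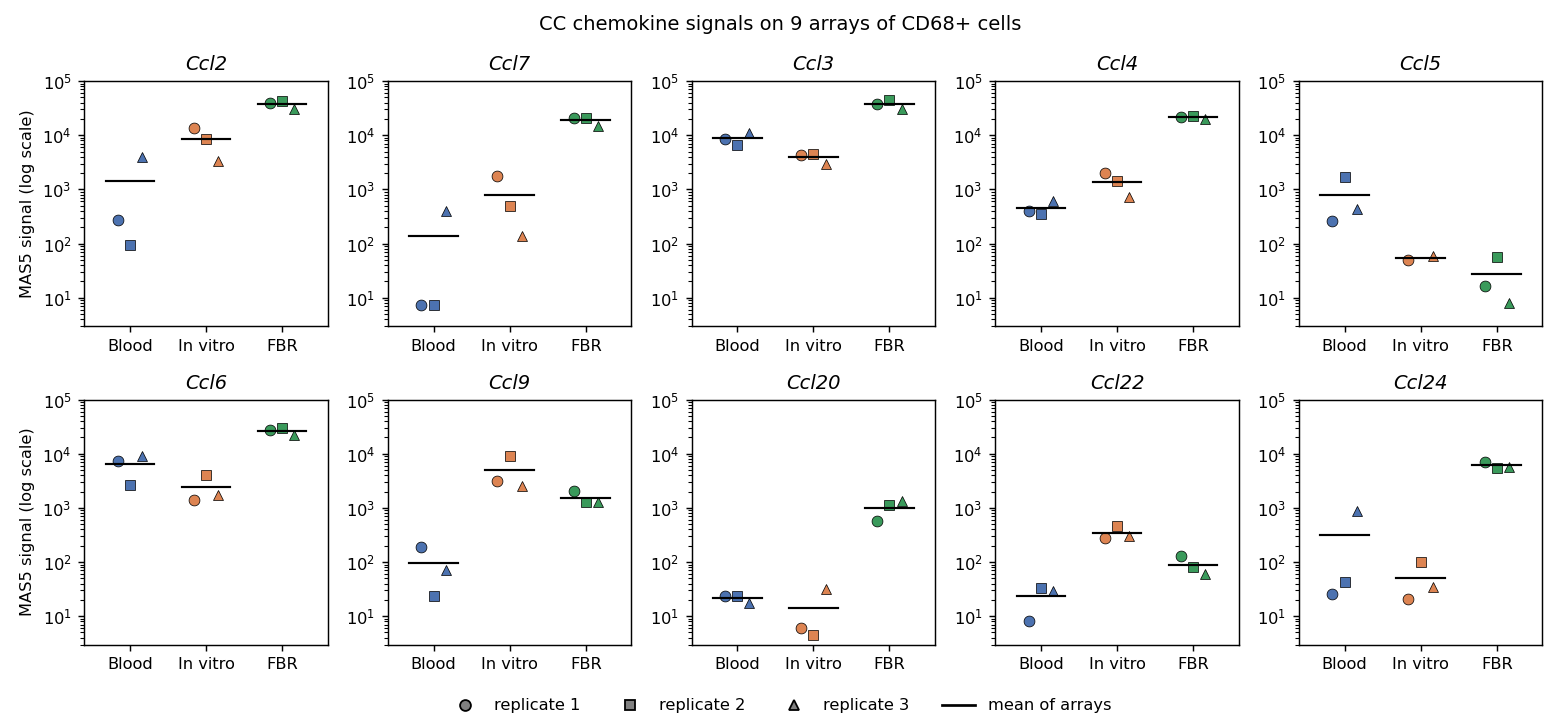
MAS5 signal (log axis) of each CC chemokine on the 9 arrays, with 1 symbol per array, the marker shape giving the replicate number and the bar the mean of a group. All 3 FBR arrays lie above all other arrays for Ccl2, Ccl7, Ccl3, Ccl4, Ccl6, Ccl20 and Ccl24, the cultured arrays (In vitro) are highest for Ccl9 and Ccl22, and the blood arrays are highest for Ccl5.

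**Figure D2:**
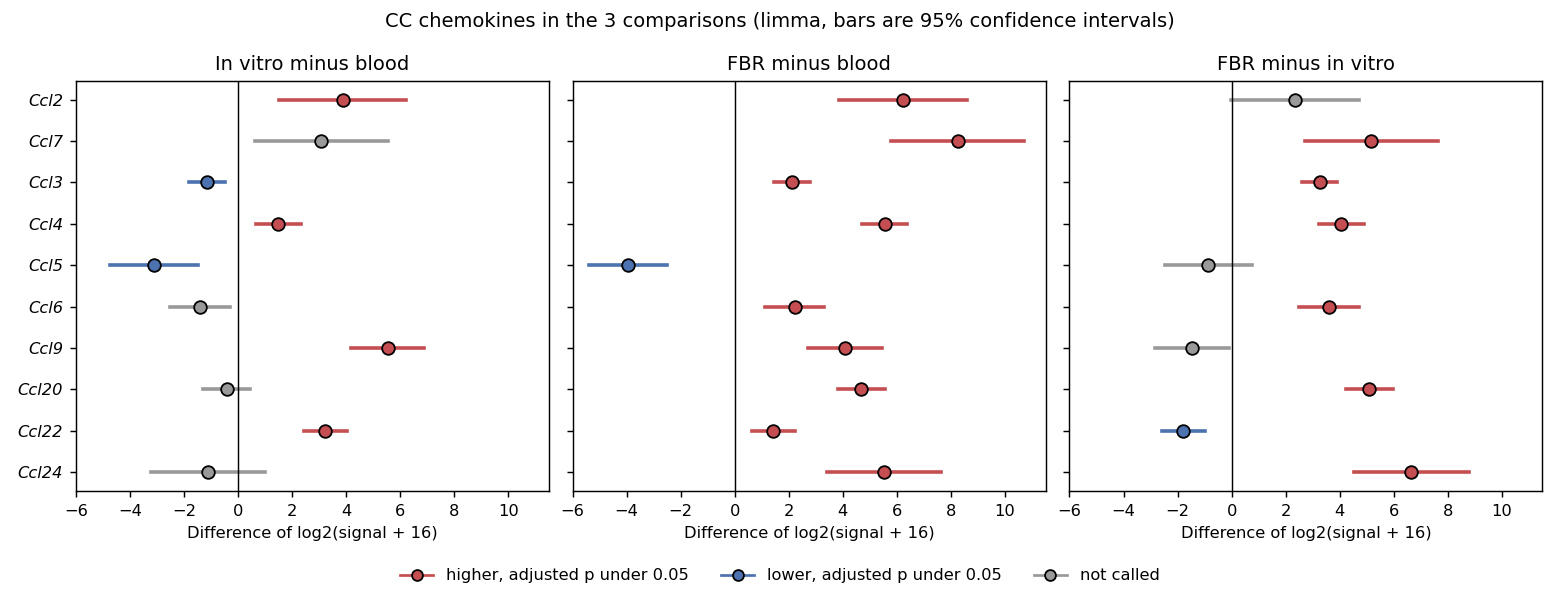
Difference of log2(signal + 16) between groups for each CC chemokine in the 3 comparisons, with 95% confidence intervals from limma and colours for the call at an adjusted p under 0.05. FBR minus blood is above 0 in 9 genes, while in vitro minus blood runs in both directions.

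In 6 genes, Ccl3, Ccl4, Ccl6, Ccl7, Ccl20 and Ccl24, FBR CD68+ cells were higher than both other groups. RefSeq promoter sequences (assembly GRCr8) matched 4 of these genes as well as Ccl9 and Ccl22, and Ccl2, Ccl3, Ccl4 and Ccl5 were not matched. The 250 bases before the annotated start of these 4 genes are shown, 5′ to 3′ on the strand of the gene. These genes were chosen because their signals were higher in FBR cells than in both other groups. Every match found on the strands searched is in capitals.
Ccl7, chr10:67513845-67514094, plus strand: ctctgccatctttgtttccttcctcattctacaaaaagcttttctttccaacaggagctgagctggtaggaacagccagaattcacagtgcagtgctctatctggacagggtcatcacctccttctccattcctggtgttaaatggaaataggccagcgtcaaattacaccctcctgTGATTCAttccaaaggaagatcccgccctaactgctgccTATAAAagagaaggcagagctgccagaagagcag
Ccl6, chr10:68883367-68883616, minus strand: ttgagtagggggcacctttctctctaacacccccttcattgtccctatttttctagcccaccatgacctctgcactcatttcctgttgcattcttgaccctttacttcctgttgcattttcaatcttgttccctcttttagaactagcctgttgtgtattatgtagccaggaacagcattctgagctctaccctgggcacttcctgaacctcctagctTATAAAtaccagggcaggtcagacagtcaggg
Ccl20, chr9:91836909-91837158, plus strand: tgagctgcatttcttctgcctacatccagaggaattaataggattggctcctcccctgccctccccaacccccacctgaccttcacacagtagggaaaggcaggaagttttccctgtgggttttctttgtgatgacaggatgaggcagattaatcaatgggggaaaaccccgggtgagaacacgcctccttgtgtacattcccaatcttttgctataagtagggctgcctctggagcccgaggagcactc
Ccl24, chr12:26737173-26737422, plus strand: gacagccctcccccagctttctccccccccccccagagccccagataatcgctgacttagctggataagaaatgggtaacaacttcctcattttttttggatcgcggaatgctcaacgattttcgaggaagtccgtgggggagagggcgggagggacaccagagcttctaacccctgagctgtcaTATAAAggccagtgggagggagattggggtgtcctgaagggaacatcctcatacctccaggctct
The motifs were searched on both strands, except the kappaB consensus, which was searched on the strand of the gene only. TATAAA, the TATA box, stood at bases -34 to -29 before the start of Ccl7, at -32 to -27 in Ccl6 and at -65 to -60 in Ccl24, and on the opposite strand at -165 to -160 in Ccl9, and 12.9% of 33469 promoter windows of this length hold it. TGANTCA, the AP-1 motif, was found in Ccl7 at -73 to -67, and 6.34% of windows hold it. No window of the 6 matched genes had the STAT palindrome (6.25% of all windows) or TTGCNNAA, a C/EBP-type motif (9.22%). None had the kappaB consensus on the strand of the gene, where 4.42% of all windows hold it. The opposite strand was not searched for it, and some windows hold a kappaB consensus there. The Ccl7 window above reads ggaagatccc, the Ccl20 window ggaaaacccc and the Ccl9 window, not shown, ggaaagcccc. The share of all windows with a match on the opposite strand was not counted. These matches describe letters only.

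The arrays as a whole differed little in scale, with trimmed mean signals of 502.6 to 504.2, and arrays of 1 group correlated at 0.932 or more. Of the probe sets called between FBR and blood cells 3425 were higher and 6275 lower, which became 5430 and 4062 with median centring of the arrays and 4281 and 4705 with quantile normalization. Between FBR and cultured cells the split was 2462 to 4615, and 3924 to 2383 or 3026 to 3229 with these scalings. The median difference over all probe sets moved from -0.17 to 0.20 and from -0.24 to 0.10 with median centring, and to 0.00 and -0.05 with quantile normalization. No call of the 10 CC chemokines changed with either scaling. Cd68, the antigen of the selection, had signals of 3524 to 11741 in blood, 23892 to 38245 in cultured and 20075 to 24802 in FBR cells. Blood cells also carried B cell markers, with Ms4a1 at 12497 to 16481 and a sum of 33968 to 49692 over 5 measured markers, against 275 to 1889 in cultured and 20.3 to 121 in FBR cells. All 5 were lower in both other groups than in blood, and the share of B cells in the blood signals was not tested.

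Ccl2 and Ccl7, the ligands of Ccr2, reached their highest signals in FBR CD68+ cells. Ccl2 had signals of 269, 94.1 and 3986 on the 3 blood arrays, of 13770, 8618 and 3278 on the cultured arrays and of 39469, 42328 and 30810 on the FBR arrays. The FBR arrays stood above all others, while blood replicate 3 exceeded 1 cultured array. On the log2 scale FBR cells were above blood cells by 6.22 (standard error 1.06, adjusted p = 0.0014, limma) and cultured cells by 3.87 (standard error 1.06, adjusted p = 0.023). The difference between FBR and cultured cells was 2.35 with a 95% confidence interval of -0.02 to 4.71 and did not pass (adjusted p = 0.14, limma), although their arrays did not overlap. The fit shares 1 estimate of spread over all 9 arrays, and without blood replicate 3 the same difference passed (adjusted p = 0.014), as it did when only the 6 arrays compared were fitted (adjusted p = 0.015). The call of cultured over blood cells was lost without blood replicate 1 (adjusted p = 0.075), blood replicate 2 (0.084), cultured replicate 1 (0.077) or cultured replicate 2 (0.062). It was also lost with array weights (0.079), with only the 6 arrays compared (0.057) and with a pseudocount of 1 (0.051). With only the values that needed no restoring of a lost decimal point, 1 cultured array was left and the difference was 4.78. Without blood replicate 3 the log2 differences from blood were larger, at 7.71 in FBR cells (adjusted p = 5.2e-05) and 5.37 in cultured cells (adjusted p = 4.8e-04).

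Ccl7 had the largest of the 10 differences between FBR and blood cells. Its blood signals were 7.24, 7.31 and 402, its cultured signals 1780, 491 and 135, and its FBR signals 20969, 20507 and 14765. Every FBR array lay far above every other array. The log2 difference was 8.25 against blood cells (standard error 1.11, adjusted p = 3.4e-04, limma) and 5.17 against cultured cells (adjusted p = 0.008). Without blood replicate 3 the first was 9.64 (adjusted p = 7.7e-05). Cultured and blood arrays overlapped, and their difference of 3.08 did not pass (95% confidence interval 0.62 to 5.54, adjusted p = 0.068). It passed after a filter on low signals (adjusted p = 0.04), without blood replicate 3 (4.47, adjusted p = 0.005) and without cultured replicate 3 (3.97, adjusted p = 0.033). The same cultured array, replicate 1, was highest in Ccl2, Ccl7 and Ccl4, and replicate 3 was lowest in all of them.

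Ccl24, the eosinophil attractant, also had a single high blood array. It was measured at 26.1, 42.8 and 884 in blood, at 21.2, 98.9 and 34.6 in cultured and at 7088, 5422 and 5697 in FBR cells. In log2 difference FBR cells exceeded blood cells by 5.53 (standard error 0.95, adjusted p = 0.0015, limma) and cultured cells by 6.65 (adjusted p = 0.001). Without blood replicate 3 the first was 6.92 (adjusted p = 2.3e-05). Cultured and blood cells overlapped and differed by -1.12 (95% confidence interval -3.23 to 0.99, adjusted p = 0.44), by 0.27 without blood replicate 3 (adjusted p = 0.73), by -1.94 without blood replicate 1 (adjusted p = 0.19) and by -1.70 without blood replicate 2 (adjusted p = 0.32).

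In blood replicate 3, Ccl2, Ccl7 and Ccl24 were all far above the other blood arrays. Its Ccl7 signal was 55.0 times the higher of the other blood signals, which ranked 1 of the 30441 probe sets measured on all blood arrays. For Ccl24 the ratio was 20.7 (rank 7) and for Ccl2 it was 14.8 (rank 18). For the other 7 genes on their main probe set it lay between 0.251 in Ccl5 and 1.54 in Ccl4. The lower Ccl7 signals lie at the low end of the scale, where a ratio is least certain. On the log2(signal + 16) scale the range over the blood arrays was 5.18 in Ccl2, 4.42 in Ccl24 and 4.17 in Ccl7, and 0.00986%, 0.0427% and 0.0493% of probe sets had a wider range, where the median range was 0.69. The FBR arrays spread far less in the same genes, by 0.46, 0.39 and 0.51. In blood Ccl5, Ccl9 and Ccl6 also had wide ranges, of 2.65, 2.37 and 1.78 (0.483%, 0.940% and 4.67% of probe sets wider). Among the summed cell type markers, blood replicate 3 was the highest blood array in platelet markers (7521 against 4951 and 4488), dendritic cell markers (13646 against 10788 and 5510) and fibroblast markers (158 against 115 and 124). In macrophage markers it lay between the others (46658 against 48724 and 30667), as it did in the B cell, T cell, NK cell, neutrophil, mast cell and eosinophil, mesothelial and endothelial sums. The dendritic cell sum rested on Cd83 (10494 against 4976 and 3974), while Flt3 was lowest in replicate 3 and Itgax lay between. Of the platelet markers Pf4, Ppbp and Gp9 were highest in replicate 3 and Itga2b lay between. All fibroblast markers were at or under 69.1 in blood. Of these Col1a2, Col3a1 and Pdgfra were highest in replicate 3, Col1a1 lay between, and Dcn and Lum were lowest. The part of such cells in these signals was not tested. Without blood replicate 3, FBR cells exceeded blood cells in 9 genes and lay below them in 1, cultured cells exceeded blood cells in 5 and lay below in 1, and FBR cells exceeded cultured cells in 7 and lay below in 1.

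**Figure D3:**
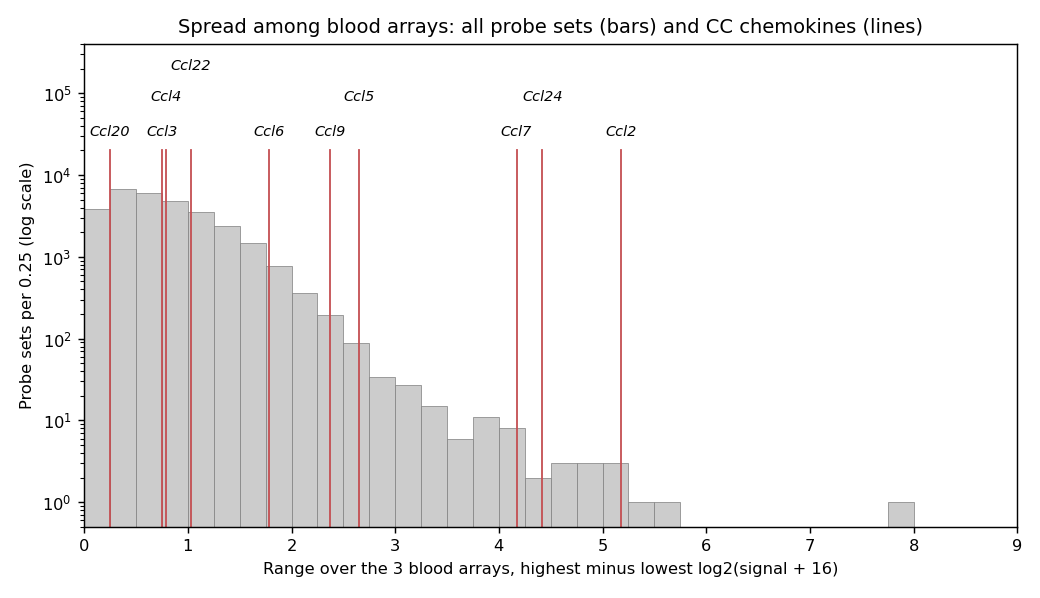
Number of probe sets (log axis) by the range of log2(signal + 16) over the 3 blood arrays, with a line for the main probe set of each CC chemokine. Ccl2, Ccl24 and Ccl7 stand at 5.18, 4.42 and 4.17, far to the right of the median of 0.69. Ccl5, Ccl9 and Ccl6 follow at 2.65, 2.37 and 1.78, while Ccl20 and Ccl3 lie at 0.25 and 0.75.

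Ccl3 and Ccl4, inflammatory chemokines that are neighbours in the genome, both rose in FBR CD68+ cells and moved in opposite directions in culture. Ccl3 was measured at 8660, 6598 and 11076 in blood, at 4335, 4592 and 2904 in cultured and at 37525, 45283 and 30077 in FBR cells. None of the 3 groups overlapped with another, and the cultured cells were lowest. Ccl3 was above blood cells by a log2 difference of 2.11 in FBR cells (standard error 0.29, adjusted p = 4.4e-04, limma) and below them by a difference of -1.15 in cultured cells (adjusted p = 0.017). The fall in vitro no longer passed without blood replicate 3 (-0.96, adjusted p = 0.066) or without cultured replicate 3 (-0.94, adjusted p = 0.052). FBR cells exceeded cultured cells by a log2 difference of 3.26 (adjusted p = 9.0e-05).

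Ccl4 rose in both activated groups. Its signals were 402, 352 and 620 in blood, 2040, 1410 and 721 in cultured and 21873, 23062 and 19530 in FBR cells. Again no groups overlapped, in the order blood, cultured, FBR. The log2 differences were 1.49 from blood to cultured cells (standard error 0.37, adjusted p = 0.015, limma), 5.54 from blood to FBR cells (adjusted p = 6.8e-06) and 4.05 from cultured to FBR cells (adjusted p = 9.5e-05). The smallest of these did not pass without blood replicate 2 (1.33, adjusted p = 0.055). With only the values that needed no restoring of a lost decimal point it was 0.51. That setting left 1 cultured array, replicate 3, the lowest of the cultured arrays.

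Ccl6, a macrophage chemokine described in the mouse, rose in FBR CD68+ cells over both other groups. Signals of 7395, 2686 and 9236 in blood and of 1415, 3998 and 1733 in cultured cells stood against 27789, 30010 and 21873 in FBR cells. Blood and cultured arrays overlapped, and all FBR arrays were above them. In log2 difference FBR cells exceeded blood cells by 2.21 (standard error 0.50, adjusted p = 0.0065, limma) and cultured cells by 3.61 (adjusted p = 8.3e-04). The cultured cells differed from blood cells by -1.40 (95% confidence interval -2.50 to -0.30, adjusted p = 0.064), a difference that passed without blood replicate 2 (-1.94, adjusted p = 0.013) and without cultured replicate 2 (-1.85, adjusted p = 0.024), as well as with array weights (-1.66, adjusted p = 0.022), moderated with trend (0.029) or after a filter on low signals (0.036).

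Ccl9, the neighbour of Ccl6 in the genome, rose in both activated groups. It had signals of 190, 23.9 and 71.2 in blood, of 3141, 9215 and 2483 in cultured and of 2017, 1304 and 1263 in FBR cells. Both activated groups were far above blood, and every cultured array was above every FBR array. The log2 increase over blood was 5.54 in cultured cells (standard error 0.61, adjusted p = 1.7e-04, limma) and 4.07 in FBR cells (adjusted p = 6.6e-04). FBR and cultured cells differed by -1.47 (95% confidence interval -2.83 to -0.11), which did not pass after adjustment (adjusted p = 0.11) but passed with array weights (-1.78, adjusted p = 0.032). Without cultured replicate 2 it was -0.90 (adjusted p = 0.31).

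Ccl5, or RANTES, was the only one of the 10 that was lower in both activated groups than in blood. T cells and NK cells are well known sources of it. Blood signals were 258, 1700 and 427, cultured signals 48.7 and 58.7, and FBR signals 16.6, 56.1 and 7.96. Cultured replicate 2 stands in the deposited table as a whole number of 5 digits, which reads as 31.3 or 31274, and was left out of the fit. All blood arrays were above all others. Cultured cells were below blood cells by a log2 difference of -3.09 (standard error 0.72, adjusted p = 0.013, limma) and FBR cells by -3.95 (standard error 0.64, adjusted p = 0.0015). With the missing value read as 31.3 the first difference was -3.28 (adjusted p = 0.0037), and it was -2.99 without cultured replicate 1 (adjusted p = 0.062) and -3.20 without cultured replicate 3 (adjusted p = 0.046), each of which leaves 1 cultured array, assumed to vary like the other groups. FBR and cultured cells overlapped in Ccl5 and differed by -0.86 (95% confidence interval -2.48 to 0.77, adjusted p = 0.44), by -1.32 without FBR replicate 2 (adjusted p = 0.29) and by -0.52 without FBR replicate 3 (adjusted p = 0.70).

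Markers of T and NK cells moved with Ccl5. Of 8 NK cell markers 6 were lower in cultured and 7 lower in FBR than in blood cells, with summed signals of 2748 to 8252 in blood, 310 to 361 in cultured and 265 to 426 in FBR cells. Of 8 T cell markers 6 were lower in each group. The T cell sums were 2329 to 4511 in blood, 388 to 1359 in cultured and 796 to 867 in FBR cells. Lck was missing on cultured replicate 1, the array with the sum of 388, and read 720 and 736 on the other cultured arrays. Cd28 on blood replicate 2 and Cd3e on FBR replicate 1 were missing too, and stood at or under 19.1 on the other arrays of those groups. Blood replicate 2 was highest in Ccl5 and in both sums. No marker was at exactly 0, but Prf1, the NK cell perforin, fell from 594 to 1686 in blood to 3.18 to 12.5 and 4.11 to 19.6 in the other groups. The part of these cells in the Ccl5 result was not tested.

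Ccl20 was near the lower end of the scale in both blood-derived groups and was high on all FBR arrays. It was measured at 23.8, 23.4 and 17.5 in blood, at 6.18, 4.58 and 32.1 in cultured and at 565, 1106 and 1327 in FBR cells. No array outside the FBR group passed 32.1. FBR cells were above blood cells by a log2 difference of 4.68 (standard error 0.39, adjusted p = 2.3e-05, limma) and above cultured cells by 5.09 (adjusted p = 4.0e-05). With the lower signals near 16, the second value depended on the pseudocount and was 6.42 with a pseudocount of 1 and 3.70 with one of 64. Blood and cultured cells differed by -0.42 (95% confidence interval -1.30 to 0.46, adjusted p = 0.49), and by -0.20 to -0.81 with 1 cultured array left out.

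Ccl22, which attracts Ccr4-bearing T cells, was highest in cultured CD68+ cells. Its main probe set gave 8.29, 33.6 and 28.7 in blood, 278, 456 and 300 in cultured and 129, 79.7 and 59.2 in FBR cells. The groups were separate in the order blood, FBR, cultured. Cultured cells were above blood cells by a log2 difference of 3.22 (standard error 0.36, adjusted p = 1.8e-04, limma), FBR cells were above blood cells by 1.43 (adjusted p = 0.012), and FBR cells were below cultured cells with a difference of -1.80 (adjusted p = 0.0057). The other Ccl22 probe set showed none of this, with signals of 31.8 to 104 on all 9 arrays and differences of 0.25, 0.16 and -0.09 that did not pass (adjusted p = 0.64, 0.78 and 0.87). With the mean of both probe sets the increase in FBR cells was 0.79 and did not pass (adjusted p = 0.053), and it was 0.80 with a pseudocount of 64 (adjusted p = 0.021).

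The genes whose pattern over the arrays was most like that of a CC chemokine were found by the root mean square difference of centred log2(signal + 16) values, among 10276 genes (10277 for Ccl5). Ccl3 was most like Bcl3 and Tnfaip3, at 0.24 each, and Tnfaip3 had mean signals of 5164 in blood, 2624 in cultured and 30829 in FBR cells. Ccl22 was most like Sccpdh (0.23) and Ect2 (0.33), and Ccl20 was most like the cytokine genes Il10 (0.39) and Csf2 (0.46). Il10 had means of 18.8, 16.3 and 1474 in blood, cultured and FBR cells. Ccl4 was nearest to Gab1 (0.39) and Zfand2a (0.43), Ccl6 to Abcg2 (0.43) and Plcb4 (0.46), and Ccl5, over 8 arrays, to Osbpl5 and the NK cell receptor gene Klrb1c (0.43 each). The patterns of Ccl7 (Serpinb2, 0.72, and Ier3, 0.91), Ccl9 (Slc41a2, 0.74, and Fam20c, 0.75), Ccl2 (Folr2, 0.83, and Fpgs, 0.98) and Ccl24 (Cxcl2, 0.91, and Saa3, 1.24) had more distant neighbours. These are descriptions over 9 arrays in 3 groups.

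Of 9 other CC chemokines listed, 6 were measured, and only Ccl17, a further ligand of Ccr4, passed in any comparison. Ccl17 had signals of 239, 91.8 and 181 in blood, of 10.1 and 8.13 on the 2 cultured arrays measured and of 440, 118 and 79.3 in FBR cells. It was lower in cultured than in blood cells (log2 difference -2.81, adjusted p = 0.0098, limma) and higher in FBR than in cultured cells (2.84, adjusted p = 0.011), opposite to Ccl22 in both comparisons. Ccl11, Ccl19, Ccl21, Ccl27 and Ccl28 stayed at or under 107 on all arrays.

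Of 14 listed CC chemokine receptors and related receptors 10 were measured. Compared with blood cells 1 was higher and 3 were lower in cultured cells, and 2 were higher and 1 lower in FBR cells, where 25.1% and 31.2% of all probe sets were called either way. Between FBR and cultured cells, 2 were higher and 3 lower in FBR cells, against 22.8% of all probe sets. Among these Ccr10, called higher, and Ackr1 and Ackr4, called lower, had low signals, at or under 87.3 on all arrays. Ccr1, the receptor of Ccl3, rose by 2.53 on the log2 scale in cultured cells (adjusted p = 2.5e-04, limma) and by 2.00 in FBR cells (adjusted p = 6.4e-04), from 685 to 1186 in blood to 4926 to 6400 and 2964 to 4831. Ccr2, the receptor of Ccl2 and Ccl7, had signals of 445 to 960 in blood, 4.45 to 322 in cultured and 127 to 174 in FBR cells, with log2 differences from blood of -2.60 (adjusted p = 0.043) and -2.05 (adjusted p = 0.088). Ccrl2, which binds the chemoattractant chemerin, followed the order of Ccl3, from 950 to 2467 in blood to 294 to 382 in cultured and 19374 to 27053 in FBR cells, and differed by 6.08 between the activated groups (adjusted p = 8.9e-06). Ccr6, the receptor of Ccl20 and abundant on B cells, fell from 3600 to 6909 in blood to 118 to 515 and 26.8 to 38.5, together with the B cell markers given above.

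Markers of other cells were read beside the FBR results. Of 6 fibroblast markers Col1a1, Col1a2 and Col3a1 exceeded blood in FBR cells. The fibroblast sum was 282 to 1257 in FBR, 91.2 to 437 in cultured and 115 to 158 in blood cells. Pdgfra was missing on FBR replicate 2, the array with the sum of 282, and read 25.5 and 44.2 on the other FBR arrays. FBR replicate 1 had the highest fibroblast sum and was not the highest FBR array in Ccl2, Ccl3, Ccl4, Ccl6 or Ccl20, but was in Ccl7, Ccl9, Ccl22 and Ccl24. Of 7 neutrophil markers Lcn2, S100a8, S100a9 and Csf3r were higher in FBR than in cultured cells and Lcn2 higher than in blood, with sums of 2776 to 3359 in FBR, 212 to 790 in cultured and 586 to 2224 in blood cells. Camp, Mmp8 and Cxcr2 stayed at or under 43.7 on the FBR arrays. The macrophage markers, 6 of 8 higher in FBR than in blood cells and 4 of 8 higher in cultured cells, summed to 102434 to 116085 in FBR, 75798 to 116686 in cultured and 30667 to 48724 in blood cells. Among these 8 only Cd163, a scavenger receptor, passed between FBR and cultured cells, and was higher in FBR cells. In FBR against blood cells 1 of 4 platelet markers was higher and 2 were lower, 0 of 3 dendritic cell markers were called, 1 of 6 mast cell and eosinophil markers was lower, 1 of 4 mesothelial markers was higher and 2 of 4 endothelial markers were lower. The part of these cells in the chemokine signals was not tested.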

How the data were processed

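CD68+ cells were measured on Rat Genome 230 2.0 arrays after double-round amplification. The authors deposited MAS5 signals, a linear intensity per probe set made with Microarray Suite 5.0, and RMA comparison tables with their own fold changes and adjusted p-values, which were not used.

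Of 279891 deposited cells 233544 stood with a decimal point and were kept. No cell had exactly 3 decimals, and 44212 whole numbers of 6 or 7 digits (15.8%) were read as signals that had lost their point and divided by 1000, among them 25 of the 99 chemokine values. Another 777 were left missing because the other arrays of the group lay nearer to a reading as millionths, which may narrow the spread within groups. In all 2135 cells (0.763%) were missing, including whole numbers of 5 digits and dates.

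Probe sets were named from the platform annotation: 20832 carried 1 symbol, 436 several and 9831 none, and 20764 were matched by Entrez ID. Where a gene had several probe sets, that of highest mean signal stood for it. Values of log2(signal + 16) were fitted with limma 3.58.1 in R 4.3.3 with 1 mean per group over all 9 arrays, with Benjamini-Hochberg adjustment across all 31099 probe sets. The fit was tested on simulated data. Tables were made with Python 3.11.15 and pandas 2.3.3. The genes, lists and tests were chosen with earlier results of these data known. Text names all 10 genes, listed chemokines and receptors, and the 2 genes nearest to each of the 10 in pattern. Alternatives covered pseudocounts, a filter on signals under 100, scaling, arrays fitted, variance moderation, array weights, restored values, probe set choice, a replicate block and each array left out. The number of arrays limits the precision.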

Additional observations from a re-analysis of the deposited data

Results flagged for a closer look

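In 4 genes the difference from blood had opposite signs in the activated groups while FBR and cultured CD68+ cells differed by the test between them (limma): Ccl3 by 3.26, Ccl6 by 3.61, Ccl20 by 5.09 and Ccl24 by 6.65. Of these only Ccl3 was also called lower in cultured than in blood cells, and Ccl24 was 0.27 above blood without blood replicate 3.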

How the results depend on the processing

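Directions were stable: of 623 values of single genes under the alternatives 597 kept their side of the threshold, 14 lost a call, 12 gained one, and no called value changed sign. The 9 genes higher and 1 lower in FBR than in blood cells were counted again under every alternative but the mean of probe sets (8 higher) and the values as deposited (6, with 3 genes that could not be fitted). Cultured over blood cells was least firm: with only the values as deposited 1 gene was higher in place of 4, and with each array left out in turn 2 to 5 were higher and 1 to 3 lower. The values as deposited left 1 cultured array for Ccl2 and Ccl4 and none for Ccl9. Between FBR and cultured cells 2 genes were lower in place of 1 with array weights, which adds Ccl9 (-1.78, adjusted p = 0.032, limma). Leaving out arrays gave 6 to 7 higher and 1 lower in that comparison. Replicate numbers did not pair the samples, since the deviations of equal numbers correlated at -0.07 to 0.07. Each FBR array correlated best with the cultured array of its own number, which was not so against blood. With a replicate block 2 genes were lower between FBR and cultured cells, Ccl5 being added (-1.47, adjusted p = 0.027), and no other count moved by over 1.5 times. Reading 5-digit numbers as thousandths, chosen after seeing the data, changed no call. Signals near 16 and without detection calls limit the low values of Ccl5, Ccl7, Ccl9, Ccl20, Ccl22 and Ccl24.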
